A study of Mus musculus with 6 samples.

Results

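A set of 9 genes that earlier work reported as directly regulated by KLF6 was followed in liver RNA of 6 mice on a high-fat diet. These are Cdkn1a, Tgfb1, Tgfbr1, Tgfbr2, Eng, Acvrl1, Plau, Nos2 and Atf3, genes of growth arrest, TGF beta signalling, matrix proteolysis and stress. Each was represented by the probe set of the exon array whose platform annotation names that gene alone, and all 9 of 9 genes had 1 such probe set among the 14860 genes measured. The genes were listed from reports on KLF6, with earlier results of these data known. Of the mice, 3 carried a hepatocyte-specific knockdown of Klf6 (DeltaHepKlf6), with improved glucose tolerance and less steatosis per the labels, and 3 were wild-type littermate controls (Control) with glucose intolerance and marked steatosis. All 6 ate the same high-fat diet for 8 weeks, so diet was shared by both groups, while steatosis differed between the groups together with genotype. Each mouse gave 1 array of whole-liver RNA. Per the labels the knockdown was limited to hepatocytes. The construct that drives it and the strain, age and sex of the mice are not stated in the labels.

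KLF6, a Kruppel-like zinc finger protein, is a transcription factor that binds GC-rich and CACCC elements in promoters and is itself induced early after injury. Cdkn1a, which encodes the cyclin-dependent kinase inhibitor p21, is its best known target in growth arrest. In the TGF beta pathway, a secreted ligand such as TGF beta 1 (Tgfb1) assembles the type II receptor (Tgfbr2) and the type I receptor (Tgfbr1), which phosphorylate SMAD proteins, while endoglin (Eng) and the receptor ALK1 (Acvrl1) serve the same family mainly in endothelial cells. In liver this pathway is known for driving fibrosis and for restraining hepatocyte growth. Plau encodes urokinase, the protease that activates plasminogen, Nos2 the inducible nitric oxide synthase, and Atf3 a stress-induced transcription factor of the ATF and CREB family.

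RefSeq promoter windows of build GRCm38.p6, reaching from 250 bases before to 50 bases after an annotated start, were found for 6 of the 9 genes, with 8 windows in all. The GC box GGGCGG occurred on either strand in 4 of the 8 windows, against 35.7% of 32851 windows of the same length for all genes, and CACCC on either strand in 6 of 8, against 57.5%. Copies of the same or of the other element can overlap. The 5 windows below belong first to Atf3 and Cdkn1a, the genes with the highest Pearson r with Klf6 among the 9. The others are those of the ligand, with the most GC boxes of the 8, and of endoglin, with none, as in some other windows. All 5 read 5′ to 3′ on the strand of the gene, and capitals mark GGGCGG or CACCC on either strand.
Atf3: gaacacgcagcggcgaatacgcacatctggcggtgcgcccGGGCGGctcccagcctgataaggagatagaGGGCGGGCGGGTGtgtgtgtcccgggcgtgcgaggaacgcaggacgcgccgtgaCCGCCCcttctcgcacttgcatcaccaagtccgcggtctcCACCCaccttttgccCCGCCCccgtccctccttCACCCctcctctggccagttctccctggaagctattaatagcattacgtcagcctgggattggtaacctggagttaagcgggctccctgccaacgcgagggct
Cdkn1a, upstream start: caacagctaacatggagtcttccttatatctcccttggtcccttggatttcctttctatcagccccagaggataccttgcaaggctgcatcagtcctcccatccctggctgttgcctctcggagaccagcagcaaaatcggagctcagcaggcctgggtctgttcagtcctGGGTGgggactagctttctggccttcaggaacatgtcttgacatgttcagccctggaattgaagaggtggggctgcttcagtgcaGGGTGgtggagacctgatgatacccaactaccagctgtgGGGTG
Cdkn1a, downstream start: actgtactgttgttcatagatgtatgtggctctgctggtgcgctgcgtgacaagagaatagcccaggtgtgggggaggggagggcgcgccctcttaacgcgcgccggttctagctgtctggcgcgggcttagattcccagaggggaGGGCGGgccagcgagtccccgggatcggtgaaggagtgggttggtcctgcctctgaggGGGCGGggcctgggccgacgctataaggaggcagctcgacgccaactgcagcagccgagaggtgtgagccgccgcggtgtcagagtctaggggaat
Tgfb1: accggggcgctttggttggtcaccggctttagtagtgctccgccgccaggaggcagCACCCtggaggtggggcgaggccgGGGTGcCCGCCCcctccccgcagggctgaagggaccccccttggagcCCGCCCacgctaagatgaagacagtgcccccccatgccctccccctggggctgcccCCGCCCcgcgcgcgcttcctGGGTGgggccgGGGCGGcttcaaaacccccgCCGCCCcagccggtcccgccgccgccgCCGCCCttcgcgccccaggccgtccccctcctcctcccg
Eng: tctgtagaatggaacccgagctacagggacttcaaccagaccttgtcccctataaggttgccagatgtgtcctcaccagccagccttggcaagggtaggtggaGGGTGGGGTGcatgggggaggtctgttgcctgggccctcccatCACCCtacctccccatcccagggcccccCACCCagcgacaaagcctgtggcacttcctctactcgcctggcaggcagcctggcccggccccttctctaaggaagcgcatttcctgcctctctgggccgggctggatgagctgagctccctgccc
The Atf3 window (chr1:191183284-191183583, minus strand) held 5 copies of GGGCGG and 3 of CACCC. The upstream start of Cdkn1a (chr17:29090729-29091028, plus strand) had 3 copies of CACCC and none of GGGCGG, and the downstream start (chr17:29093519-29093818, plus strand) had 2 of GGGCGG and none of CACCC. The Tgfb1 window (chr7:25686752-25687051, plus strand) held 6 copies of GGGCGG and 3 of CACCC, and the Eng window (chr2:32646345-32646644, plus strand) held 4 of CACCC alone. In Tgfbr1, 1 window had 2 copies of GGGCGG and the other 2 of CACCC, and the Tgfbr2 window had 1 of CACCC. A match of letters describes the window and is not a measured binding site.

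The arrays had medians of 5.49 to 5.55 on the log2 scale and correlated across probe sets with 0.953 to 0.974. Their spread was less even. The width from the 5th to the 95th percentile ran from 7.57 in DeltaHepKlf6 3 to 8.02 in Control 1, with 7.94 in DeltaHepKlf6 2. Control 1 stood apart in that it held the highest of the 6 values for 34.8% of genes, followed by DeltaHepKlf6 2 with 24.1%, while DeltaHepKlf6 3 did so for 7.55%. The 6 measured hepatocyte markers, Alb and Hnf4a among them, averaged 11.79 to 12.07 in the 6 arrays. Differences and slopes of the 9 genes that rest on Control 1 are therefore given with and without it. No dates or batches of hybridization are given in the labels.

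Klf6 itself was read first in each liver. It measured 6.80, 6.09 and 5.88 in Control 1, 2 and 3 against 5.93, 5.43 and 5.45 in DeltaHepKlf6 1, 2 and 3. The groups overlapped, since DeltaHepKlf6 1 lay slightly above Control 3. The difference of -0.65 ± 0.28 (SE) on the log2 scale did not pass the test (limma, Benjamini-Hochberg adjusted p = 0.998), and it was -0.38 without Control 1. Whole liver also holds cells outside the knockdown, so directions below are those of the labelled groups.

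Cdkn1a, the p21 gene of growth arrest, varied most between single livers, over 2.23 log2 units. Its log2 level was 10.06, 8.82 and 9.11 in controls 1, 2 and 3 and 8.57, 9.23 and 7.83 in DeltaHepKlf6 mice 1, 2 and 3. Control 1 was highest and DeltaHepKlf6 3 lowest, while DeltaHepKlf6 2 lay above 2 of the 3 controls. The means were 9.33 ± 0.65 and 8.54 ± 0.70 (SD, n = 3), a difference of -0.79 ± 0.46 (SE) with a 95% confidence interval of -1.89 to 0.32, equal to 1.73-fold lower in DeltaHepKlf6 (limma, adjusted p = 0.998). Without Control 1 the difference was -0.42 ± 0.42 (SE), and without DeltaHepKlf6 3 it was -0.43. The spread within each group was nearly as large as the difference between them.

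Atf3, the stress-induced factor, was the 1 gene of the 9 whose groups did not overlap. Its log2 level was 7.32, 5.80 and 5.92 in controls 1, 2 and 3 and 5.60, 5.23 and 5.58 in DeltaHepKlf6 mice 1, 2 and 3. Every DeltaHepKlf6 liver was below every control, and Control 1 was far above the other two. Values without overlap and lower in DeltaHepKlf6 were found in 3.67% of all 23332 probe sets, and in either direction in 6.72%. The means were 6.35 ± 0.85 and 5.47 ± 0.21 (SD, n = 3), a difference of -0.88 ± 0.42 (SE) with a 95% confidence interval of -1.89 to 0.14 (limma, unadjusted p = 0.0791, adjusted p = 0.998). Without Control 1 the difference was -0.39 ± 0.19 (SE, limma adjusted p = 0.9997).

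**Figure D1:**
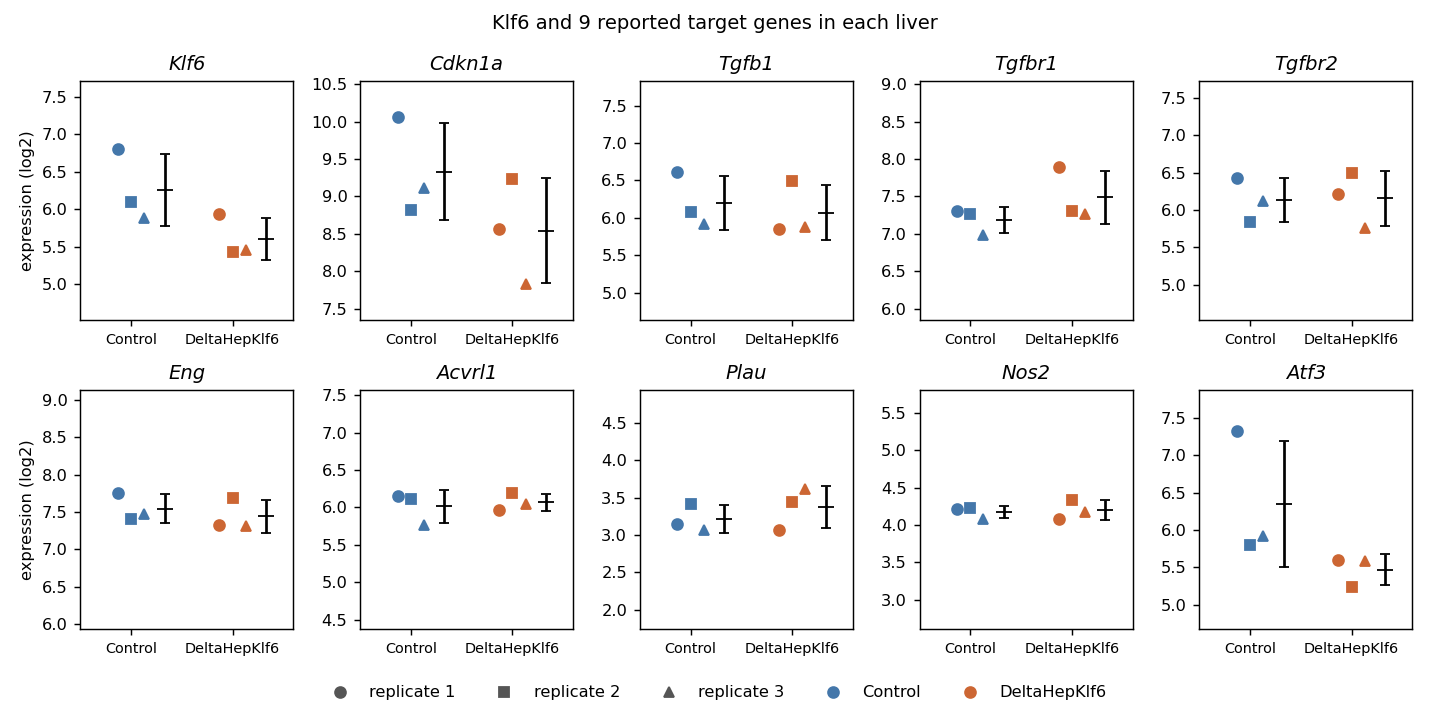
Log2 expression of Klf6 and the 9 reported target genes in each of the 6 livers, with every panel spanning the same number of log2 units. Points are single arrays, shaped by replicate number, and bars give the group mean with SD (n = 3). Klf6, Cdkn1a, Tgfb1, Eng and Atf3 are highest in Control 1, at 6.80, 10.06, 6.61, 7.76 and 7.32. Only Atf3 shows no overlap between the groups.

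The ligand gene Tgfb1 measured 6.61, 6.08 and 5.92 in controls 1, 2 and 3 and 5.85, 6.49 and 5.87 in DeltaHepKlf6 mice 1, 2 and 3. Control 1 and DeltaHepKlf6 2 were the high livers, 1 of each group, and the other 4 lay between 5.85 and 6.08. The difference was -0.13 ± 0.26 (SE) with a 95% confidence interval of -0.77 to 0.51, and 0.07 without Control 1.

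Among the receptors, Tgfbr1, the type I receptor kinase, was on the higher side in DeltaHepKlf6. It measured 7.31, 7.26 and 6.99 in controls 1, 2 and 3 and 7.90, 7.31 and 7.26 in DeltaHepKlf6 mice 1, 2 and 3. DeltaHepKlf6 1 alone stood above all the other livers. The difference was 0.30 ± 0.22 (SE) with a 95% confidence interval of -0.22 to 0.83, and 0.10 without DeltaHepKlf6 1. Tgfbr2, the type II receptor that binds the ligand, measured 6.43, 5.84 and 6.12 in the controls and 6.21, 6.49 and 5.76 in the DeltaHepKlf6 livers, in the order of replicate numbers. The groups covered nearly the same range, and the difference was 0.02 ± 0.25 (SE), with a 95% confidence interval of -0.57 to 0.62.

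The coreceptor endoglin and the receptor ALK1 were both nearly even between the groups. Eng measured 7.76, 7.40 and 7.47 in controls 1, 2 and 3 and 7.32, 7.69 and 7.31 in DeltaHepKlf6 mice 1, 2 and 3. As for Tgfb1, Control 1 and DeltaHepKlf6 2 were high and the other livers were close together. The difference of Eng was -0.10 ± 0.18 (SE), or 0.005 without Control 1. With quantile normalization of the arrays it was -0.002. Acvrl1 measured 6.16, 6.12 and 5.76 in the controls and 5.97, 6.19 and 6.04 in the DeltaHepKlf6 livers, a difference of 0.05 ± 0.16 (SE) with a 95% confidence interval of -0.34 to 0.45. The 13 endothelial markers averaged 7.23 to 7.46 in the control arrays and 7.02 to 7.41 in the DeltaHepKlf6 arrays, with 9 of 13 lower, a median difference of -0.06 and 0 called by limma, and their part in the values of Eng and Acvrl1 was not tested. In whole-liver RNA fewer cells of a type and less RNA per cell cannot be told apart.

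Plau and Nos2 were dim on every array. Plau measured 3.15, 3.42 and 3.07 in the controls and 3.07, 3.45 and 3.62 in the DeltaHepKlf6 livers, with a difference of 0.17 ± 0.19 (SE). Nos2 measured 4.21, 4.23 and 4.08 in the controls and 4.08, 4.34 and 4.17 in the DeltaHepKlf6 livers, with a difference of 0.02 ± 0.14 (SE) and the smallest range over the 6 arrays among the 9 genes, 0.26. Of 832 genes of odorant, pheromone and bitter taste receptors, chosen after the values were seen as genes little used in liver, 44.1% were at least as bright as Plau on average and 20.9% at least as bright as Nos2, against at most 1.92% for each of the other 7. Probe sets differ in brightness at equal RNA levels, so this gives only a rough idea of background, near which RMA compresses differences.

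Over the 9 genes, 4 were lower and 5 higher in DeltaHepKlf6, and the median log2 difference was 0.02, against -0.05 over all 14860 genes, of which 62.1% were lower. Without Control 1 the medians were 0.07 over the 9 genes and -0.015 over all genes. Limma called 0 of the 9 at an adjusted p under 0.05 and counted 0 at an unadjusted p under 0.05. Across the array it called 0 of 23332 probe sets (0%), with 750 (3.21%) at an unadjusted p under 0.05. Aside from Atf3 and Cdkn1a, the differences of the other 7 genes lay between -0.13 and 0.30, with confidence bounds from -0.77 to 0.83.

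**Figure D2:**
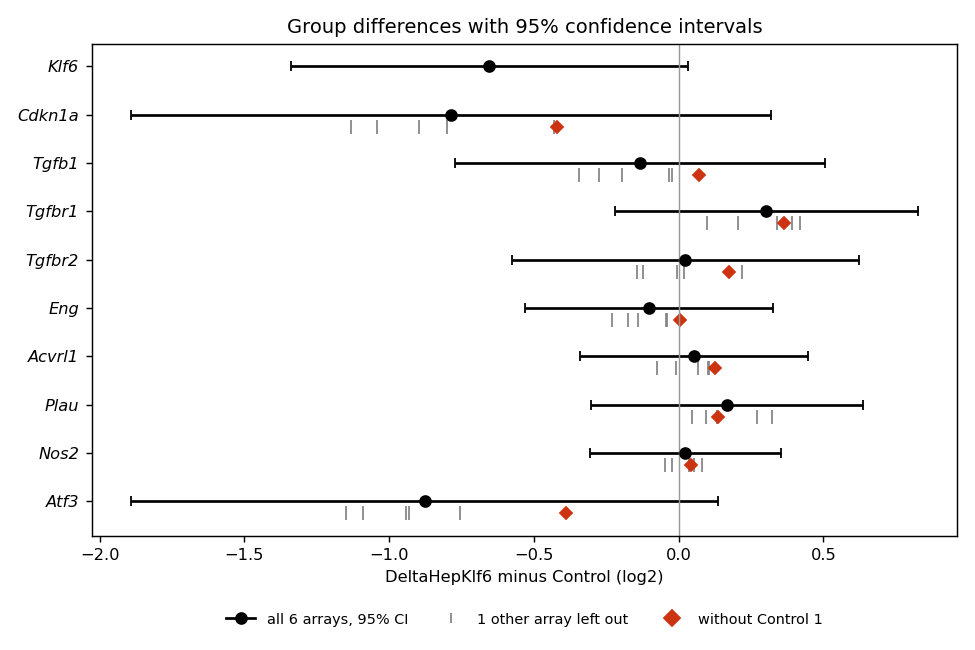
Difference between DeltaHepKlf6 and Control on the log2 scale for Klf6 and the 9 genes, with 95% confidence intervals of the moderated fit (black), for the 9 genes the differences with 1 other array left out (grey ticks) and without Control 1 (red). Every interval includes 0, and for Cdkn1a and Atf3 the difference shrinks to -0.42 and -0.39 without Control 1.

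Since Klf6 varied between livers within each group, the genes were also compared with the Klf6 level of the same liver. That level is the value of 1 probe set. No source used here names the exons it reads, so it may not measure intact Klf6 RNA. A slope of 1 means that the gene differed by 1 log2 unit where Klf6 did. Atf3 had a slope of 1.35 ± 0.25 (SE) with a 95% confidence interval of 0.75 to 1.95 (limma, unadjusted p = 0.00138, adjusted p = 0.681). Cdkn1a had a slope of 1.05 ± 0.43 (SE) with an interval of 0.01 to 2.10 (limma, unadjusted p = 0.0482, adjusted p = 0.796). The other 7 slopes lay between -0.26 for Plau and 0.29 for Tgfb1, and each interval included 0. In all, 7 of the 9 slopes were positive, against 66.5% over all genes. At an unadjusted p under 0.05, 2 of the 9 had a rising slope, against 4.04% of 23331 probe sets. Limma called 0 of the 9 slopes and 0 of 23331 probe sets (0%) at an adjusted p under 0.05, with 1452 (6.22%) at an unadjusted p under 0.05, and the exact permutation test of the correlation also called 0, with 1115 (4.78%) at an unadjusted p under 0.05.

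The slope of Atf3 depended on Control 1, the liver highest in both genes. With group as a further term, so that only differences between livers of the same group count, the slope of Atf3 was 1.36 ± 0.39 (SE; limma, unadjusted p = 0.0156, adjusted p = 0.938), where 4.79% of probe sets had an unadjusted p under 0.05. Without Control 1 and without the group term, the slope was 0.65 ± 0.36 (SE; limma, unadjusted p = 0.128). The other 2 controls ran the opposite way, with Klf6 at 6.09 and 5.88 and Atf3 at 5.80 and 5.92. Pearson's r over the 6 livers was 0.93 (two-sided exact permutation p = 0.0181, adjusted over all probe sets 0.844) and Spearman's rho 0.83 (exact permutation p = 0.0583, adjusted p = 1), where 0.00139 is the smallest p that the pairings of 6 arrays can give. Without Control 1 and DeltaHepKlf6 2, the livers farthest from the Klf6 median, r was 0.54.

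Cdkn1a followed Klf6 less closely, and DeltaHepKlf6 2 combined the lowest Klf6 value with the second highest Cdkn1a value. Its Pearson r was 0.72 (exact permutation p = 0.119, adjusted p = 0.844) and its rho 0.26 (exact permutation p = 0.658, adjusted p = 1). The slope was 0.90 ± 0.66 (SE) with group as a further term and 0.45 ± 0.83 (SE) without Control 1. Without Control 1 and DeltaHepKlf6 2, r was 0.83. For the 7 others r ranged from -0.56 for Plau to 0.44 for Tgfb1, and no exact permutation p was below 0.247. Without Control 1 the slopes of Tgfb1, Tgfbr2, Eng and Acvrl1 turned from 0.29, 0.17, 0.16 and 0.04 to -0.36, -0.25, -0.20 and -0.19, and 3 of the 9 slopes were positive, those of Cdkn1a, Tgfbr1 and Atf3.

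**Figure D3:**
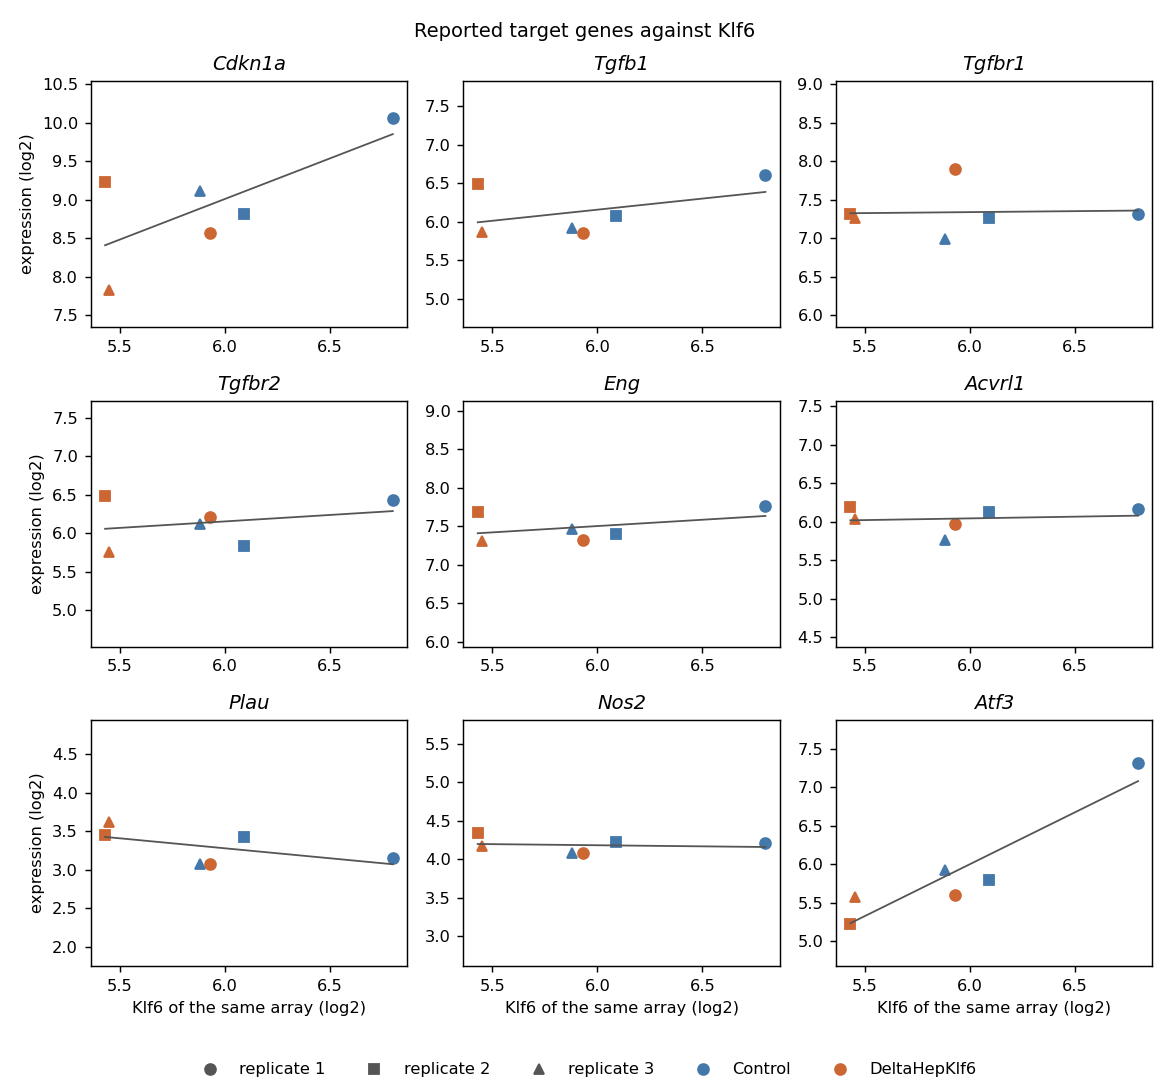
Log2 expression of each of the 9 genes against the log2 value of Klf6 in the same liver, 6 livers per panel, with the fitted slope over all 6 as a line. Control 1 is the point at a Klf6 value of 6.80. The fitted slope of Atf3 is 1.35, and 0.65 without that point, whereas the lines of Tgfbr1, Acvrl1 and Nos2 run nearly level.

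**Figure D4:**
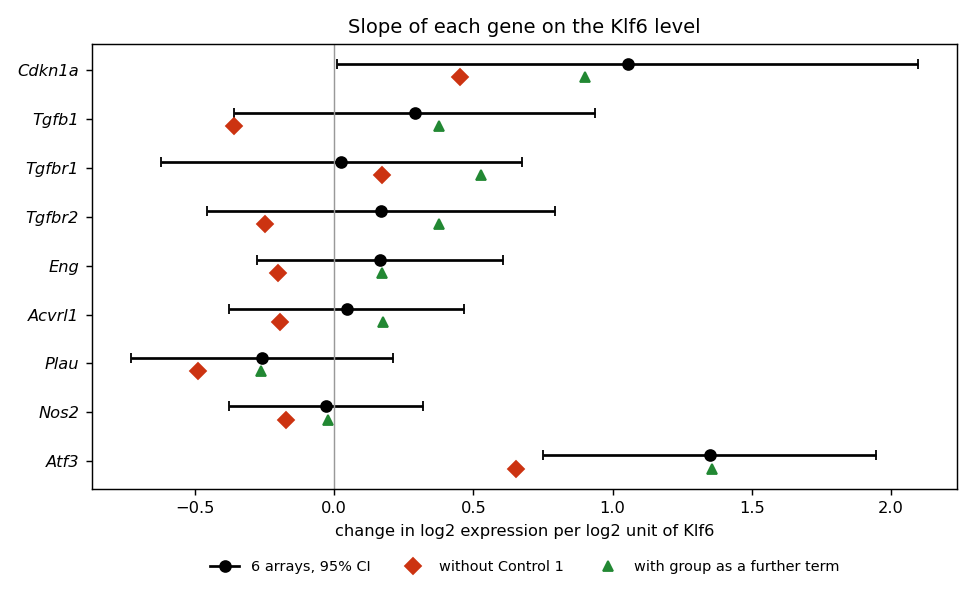
Slope of each gene on the Klf6 level in log2 units per log2 unit, with 95% confidence intervals over 6 arrays (black), without Control 1 (red) and with group as a further term (green). The interval of Atf3, 0.75 to 1.95, lies clear of 0 before adjustment over all probe sets, and its slope without Control 1 is 0.65.

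For each gene, the single gene with the most similar profile over the 6 arrays was sought among the 7428 or 7429 others with a mean above the median of all genes, as a description with no test. The profile most like that of Klf6 was Tgif1, a homeobox corepressor that binds SMAD proteins, with a Pearson r of 0.99, and 21 genes had r over 0.95. Tgif1 measured 7.77, 7.27 and 7.12 in controls 1, 2 and 3 and 7.14, 6.85 and 6.93 in DeltaHepKlf6 mice 1, 2 and 3. Atf3 was most like Harbi1, with r = 0.98, and 12 genes had r over 0.95. Cdkn1a was most like Agpat3, an acyltransferase of phospholipid synthesis, with r = 0.9995, and shared its profile with many more genes, 541 with r over 0.95. Tgfb1 and Eng also had wide company, with 194 and 288 such genes led by Fam168a and Men1, whereas Acvrl1, Nos2 and Plau had 14, 13 and 3, led by Ryk, Rdh10 and Ybx2. Tgfbr1 and Tgfbr2 were most like Tmem184c and Rras2, with 25 and 69 such genes.

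The rest of the TGF beta pathway was read from lists of its other genes. None of these lists had a member called by limma. From these lists and from the partner lists further on, 30 genes were picked by the smallest unadjusted limma p. With 1 array left out, the difference shrank by over 1.5 times in 25 of the 30 and changed sign in 1, Asl. Values with an array left out are given beside most of the 30. Of 10 other ligands of the family 8 were lower in DeltaHepKlf6, with a median log2 difference of -0.16, and Tgfb3, another TGF beta isoform, differed by -0.30 ± 0.19 (SE), or -0.14 without Control 1. Inhbc, an activin subunit made in liver, differed by -0.35 ± 0.24 (SE), or -0.095 without DeltaHepKlf6 3, and Bmp10, a ligand of ALK1, by -0.33 ± 0.27 (SE), or -0.14 at the smallest. Of 8 genes for storage and activation of the latent ligand 6 were lower, with a median of -0.10. Thbs1, thrombospondin 1, which activates the latent form, measured 7.23 in Control 1 and 5.26 to 5.64 in the other 5 livers, for a difference of -0.77 ± 0.46 (SE) that was -0.22 without Control 1. The protease gene Furin differed by -0.36 ± 0.33 (SE), or -0.06 without DeltaHepKlf6 3 and -0.21 without Control 1, and the binding protein gene Ltbp4 by -0.29 ± 0.19 (SE), or -0.16 without Control 1.

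Of 9 other receptors 7 were lower, with a median of -0.06, close to that of all genes. Acvr1, a type I receptor for bone morphogenetic proteins and activins, differed by -0.32 ± 0.21 (SE), or -0.16 without Control 1, Bmpr1b by -0.10 ± 0.13 (SE) and Acvr2a by -0.09 ± 0.13 (SE), or -0.015 without DeltaHepKlf6 3. Among the 14 SMADs and their regulators 13 were lower, with a median of -0.18 (-0.10 without Control 1), and 3 were lower without overlap, Ski, Smad6 and Smad9, the last 2 named because of that count, where 3.67% of all probe sets were lower without overlap. Ski, a corepressor of SMAD proteins, measured 6.59, 6.41 and 6.50 in the controls and 5.96, 6.18 and 6.23 in the DeltaHepKlf6 livers, a difference of -0.38 ± 0.14 (SE; limma, unadjusted p = 0.0344), -0.33 without Control 1. The related Skil differed by -0.31 ± 0.19 (SE) and Tgif1 by -0.41 ± 0.21 (SE), or -0.20 and -0.22 without Control 1. The slope of Tgif1 on Klf6, a description since Tgif1 was picked above for its likeness to Klf6, was 0.64, and without Control 1 it was 0.56.

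Of 11 measured TGF beta response genes 9 were lower, with a median of -0.12, which was -0.04 without Control 1. Over all genes the median was -0.05, and -0.015 without Control 1. Id2, an inhibitor of helix-loop-helix factors, differed by -0.51 ± 0.22 (SE), or -0.36 without Control 1, the matricellular protein gene Ccn2 by -0.27 ± 0.20 (SE) and Fn1, fibronectin, by -0.18 ± 0.15 (SE), the last 2 by -0.13 and -0.08 without Control 1. In the same livers the 15 measured markers of macrophages and Kupffer cells, which are a source of TGF beta 1, were lower in 15 of 15, with a median of -0.41 (-0.31 without Control 1) and 4 without overlap, against 3.67% of all probe sets. Their mean was 7.19 to 7.67 in the control arrays and 6.55 to 7.29 in the DeltaHepKlf6 arrays, and their part in the values of the TGF beta lists was not tested. Of the lymphocyte and neutrophil markers 9 of 9 were lower, with a median of -0.25 and mean levels of 4.62 to 5.05 in Control and 4.41 to 4.65 in DeltaHepKlf6. These means lay below 5.33, the 95th percentile of the 832 receptor genes used above as a rough guide to background. Of the stellate cell markers 8 of 10 were lower, with a median of -0.12 and mean levels of 7.38 to 7.65 in Control and 7.18 to 7.45 in DeltaHepKlf6. Of the hepatocyte markers 4 of 6 were lower, with a median of -0.055, and of the cholangiocyte markers 2 of 4, with a median of -0.02.

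**Figure D5:**
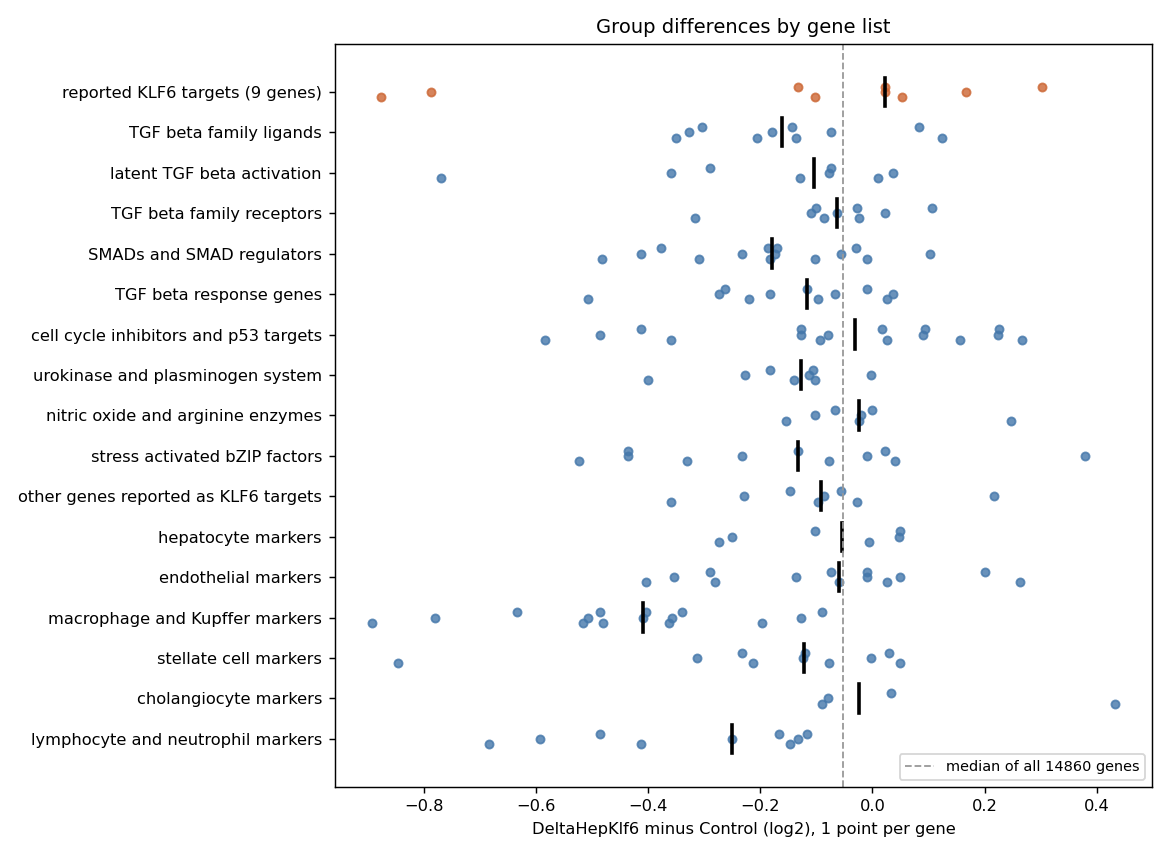
Log2 difference between DeltaHepKlf6 and Control for each gene of the 9 reported targets (orange) and of 16 other lists (blue), with list medians as black bars and the median of all 14860 genes, -0.05, as a dashed line. The targets spread from -0.88 for Atf3 to 0.30 for Tgfbr1 around a median of 0.02, and the macrophage list lies lowest with a median of -0.41.

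The partners of Cdkn1a, genes of cell cycle inhibition and of the p53 response, were evenly split, with 8 lower and 8 higher of 16 and a median of -0.03. Trp53inp1, a p53-induced nuclear protein, differed by -0.58 ± 0.32 (SE), Sesn2, a stress-induced regulator of mTOR, by -0.41 ± 0.21 (SE) and Ccng1, cyclin G1, by 0.27 ± 0.16 (SE), or -0.38, -0.28 and 0.18 without Control 1. Of 11 bZIP and other stress-activated factors, the company of Atf3, 8 were lower, with a median of -0.13 that became 0.05 without Control 1. Their mean was 6.92 in Control 1 against 6.32 to 6.44 in the other 5 livers. Fosl2, a partner of JUN, measured 6.38, 5.92 and 5.76 in the controls and 5.65, 5.47 and 5.37 in the DeltaHepKlf6 livers, without overlap, a difference of -0.52 ± 0.20 (SE; limma, unadjusted p = 0.0379), or -0.34 without Control 1. Cebpb differed by -0.23 ± 0.13 (SE), or -0.15 without DeltaHepKlf6 3, while Ddit3 stood on the other side with 0.38 ± 0.18 (SE), both without overlap. Of all probe sets, 3.67% were lower in DeltaHepKlf6 without overlap and 3.05% were higher. Fos, Jun and Egr1, named after their values were seen, were highest in Control 1 as well, at 6.37, 7.53 and 8.39 against at most 5.32, 6.61 and 7.33 in the other livers. Their differences of -0.44, -0.33 and -0.44 became 0.05, 0.03 and 0.045 without Control 1.

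Of the 8 measured genes listed for the urokinase and plasminogen system 8 were lower, the smallest difference being -0.003, against 62.1% of all genes. Their median was -0.13, which was -0.04 without Control 1, against -0.05 and -0.015 over all genes. The count of 8 rested on Control 1. Without it Plaur, Mmp9 and Hgf were slightly higher in DeltaHepKlf6, by 0.018, 0.008 and 0.012. Serpinf2, the plasmin inhibitor, differed by -0.40 ± 0.27 (SE), Mmp2 by -0.23 ± 0.19 (SE) and Plg, plasminogen, by -0.14 ± 0.14 (SE), or -0.165, -0.08 and -0.085 without DeltaHepKlf6 3. Of 7 genes of nitric oxide and arginine metabolism 5 were lower and 1, Arg1, was equal, with a median of -0.02, and Gch1, which makes the cofactor of nitric oxide synthases, differed by 0.25 ± 0.17 (SE), Arg2 by -0.15 ± 0.16 (SE) and Asl by -0.10 ± 0.22 (SE), the last 2 by -0.06 and 0.05 without Control 1. Of 8 further genes that have been linked to KLF6 in other tissues 7 were lower, with a median of -0.09, and Ccnd1, cyclin D1, differed by 0.22 ± 0.24 (SE), or 0.03 without Control 1, the keratin gene Krt4 by -0.23 ± 0.19 (SE), or -0.10 without DeltaHepKlf6 3, and the collagen gene Col1a1 by -0.10 ± 0.13 (SE). Krt4 was dim, at 3.35 to 3.96 in the 6 livers. Limma called none of the members of these lists at an adjusted p under 0.05.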

How the data were processed

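The authors deposited 1 table of log2 values for 23332 probe sets and 6 arrays, and the tools named per the submitters' processing notes, without version or role, are Affymetrix Expression Console, RMA and limma. The log2 scale was inferred from values of 0.65 to 14.35. RMA normalizes arrays against each other and leaves dim probe sets near background. No source used here names the genome build of the probe sets. Gene names came from the platform annotation, in which 14996 probe sets name 1 gene, 1019 several and 7317 have no name here; 14941 of the first matched the RefSeq gene table, which changed 0 symbols. The brightest single-gene probe set by mean of the 6 arrays stood for a gene.

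DeltaHepKlf6 was compared with Control in limma 3.58.1 (R 4.3.3, lmFit and eBayes), and in a further fit each probe set was regressed on the Klf6 value of its array. A Benjamini-Hochberg adjusted p under 0.05, taken over all probe sets, made a call. Correlations were tested by all 720 pairings. The labels name separate mice, so p-values measure the spread between mice. Precision is limited by the number of arrays. The members, lists and tests were chosen with earlier results of these data known, so no list was tested as a whole. Named genes were Klf6, the members, up to 3 genes per list by unadjusted p and the most similar gene to each member. Any other gene named was chosen after its values were seen. Both fits were tested on simulated data. The contrast recovered 11 of 100 true differences of 1 log2 unit and 80 of 100 of 2. A true difference of 1 log2 unit would thus mostly go uncalled. The slope fit recovered 85 of 100 true slopes of 2 and 100 of 100 of 4, and no smaller slope was tried. Python 3.11.15 with pandas 2.3.3 prepared tables and plots.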

Additional observations from a re-analysis of the deposited data

How the results depend on the processing

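The counts of called probe sets, 0 for the contrast and 0 for the slope on Klf6, stayed at 0 under an intensity trend, without the dimmest 50% of probe sets, with quantile normalization, array weights or the replicate block, with group as a further term (slope only), and from 0 to 0 with 1 array left out. The number at an unadjusted p under 0.05 moved more. For the contrast it was 233 without the dimmest 50% and 1797 without DeltaHepKlf6 2. For the slope it was 835 without the dimmest 50%, 3095 with array weights, 937 with the replicate block, 822 without Control 1 and 4778 without DeltaHepKlf6 2. The cause was not tested. The median difference over the 9 genes ranged from -0.145 to 0.07 with 1 array left out, was 0.002 with quantile normalization and -0.03 with array weights, and was -0.10 without the dimmest 50%, where Plau and Nos2 drop out. Each gene had 1 single-gene probe set, so averaging probe sets changed nothing.

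Atf3 and Cdkn1a kept their direction in every alternative run, with differences of -1.15 to -0.39 and -1.13 to -0.42 and slopes of 0.65 to 1.54 and 0.45 to 1.57 with 1 array left out. The differences of 5 genes near 0 changed sign, with ranges of -0.34 to 0.07 for Tgfb1, -0.145 to 0.22 for Tgfbr2, -0.23 to 0.005 for Eng, -0.0733 to 0.127 for Acvrl1 and -0.0483 to 0.0817 for Nos2 with 1 array left out, and Nos2 was also -0.0292 with array weights. Slopes changed sign likewise, with ranges of -0.36 to 0.60 for Tgfb1, -0.0133 to 0.172 for Tgfbr1, -0.25 to 0.44 for Tgfbr2, -0.20 to 0.34 for Eng, -0.19 to 0.15 for Acvrl1 and -0.174 to 0.0589 for Nos2. Quantile normalization gave slopes of -0.18 for Tgfbr1, -0.0602 for Eng and -0.0426 for Acvrl1, and array weights 0.0259 for Nos2. With the replicate block slopes were -0.48 for Tgfbr1, -0.0601 for Tgfbr2, -0.000944 for Acvrl1 and 0.00131 for Nos2. Spearman's rho was -0.0286 for Tgfbr2 and for Acvrl1, and r was 0.0498 for Nos2 without the 2 arrays farthest from the Klf6 median. None of these values was called.

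The labels do not say whether the replicate numbers pair the arrays. Deviations from the group means correlated at -0.13, -0.17 and 0.21 between arrays of the same number. With 3 arrays per group these values cannot settle whether the numbers pair them. The replicate block left 0 calls in both fits, but so did the fits without it, so this count cannot settle it either.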

Other observations

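Of the 16 measured cell cycle inhibitors and p53 targets, 11 had a positive slope on Klf6, against 66.5% of all genes. Their median slope was 0.04, against 0.09 over all genes. At an unadjusted limma p under 0.05, 2 of the 16 rose with Klf6, against 4.04% of probe sets, and 1 fell. The genes are named here after their values were seen. The falling gene, Eda2r, had a slope of -0.48, or -0.58 without Control 1. Gadd45a, a stress-induced gene of growth arrest, measured 7.91, 7.12 and 6.45 in controls 1, 2 and 3 and 7.17, 6.42 and 6.43 in DeltaHepKlf6 mice 1, 2 and 3. Its slope on Klf6 was 1.11 ± 0.21 (SE; limma, unadjusted p = 0.00176, adjusted p = 0.681), and 1.02 without Control 1. Trp53inp1 measured 10.09, 9.67 and 9.27 in the controls and 9.68, 8.81 and 8.79 in the DeltaHepKlf6 livers, with a slope of 0.98 ± 0.18 (SE; limma, unadjusted p = 0.0016, adjusted p = 0.681) that was 1.41 without Control 1. In both, as in Klf6, DeltaHepKlf6 1 lay above Control 3. Neither slope passed the test over all probe sets.

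Among the markers of neutrophils, S100a9 had a slope on Klf6 of 1.32 ± 0.23 (SE; limma, unadjusted p = 0.00104, adjusted p = 0.681), which was 1.33 without Control 1. Of the 15 macrophage and Kupffer cell markers, 15 had a positive slope on Klf6, against 66.5% of all genes, and 7 of them had an unadjusted p under 0.05 in limma, against 4.04% of probe sets rising with Klf6. Their median slope was 0.56, also without Control 1, against 0.09 over all genes, and 0 were called at an adjusted p under 0.05. Among the 9 reported targets the median slope was 0.16, and -0.19 without Control 1.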
